A study of Mus musculus with 6 samples.

Results

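Rab proteins are small GTPases that mark membranes and direct the budding, transport, tethering and fusion of vesicles. The Rab genes described here were chosen by gene symbol alone: every probe of the authors' expression table whose symbol was Rab followed by a number and at most a letter and a digit was a member. The rule gave 56 probes of 42 genes, out of 7989 annotated genes, and for the 11 Rab genes with several probes the brightest probe on average over the 6 arrays stood for the gene. All 42 genes passed the detection filter, which 7896 of the 7989 genes passed. The authors' table held only part of the probes measured, apparently chosen by detection, so most of its genes were bound to pass. The pass therefore does not show that the whole Rab family was expressed. A Rab gene absent from that table may have been undetected. The rule used no difference between groups, but the members were chosen with earlier results of these data known.

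The cells were dendritic cells grown for 6 days from the bone marrow of 6-week-old Rag2 knockout mice, labelled C57BL/10NAGCSnAi-(KO) Rag2 on a C57BL background, with 1.5 ng/ml of GM-CSF and as much IL-4. Rag2 is needed to rearrange the antigen receptor genes of B and T cells, and all groups carried the same deletion. In the ROS group, cells took up hematoporphyrin, a dye that makes reactive oxygen species in light, at 1 ug/ml for 1 h, were lit for 3 min at 450 to 600 nm with a peak at 515 nm and 3.1 mW per square cm, and were kept for a further 18 h. The LPS group received 1 ug/ml of bacterial lipopolysaccharide, a ligand of Toll-like receptor 4, for 18 h. The unstimulated group received neither stimulus by its label, and the labels do not say whether it was lit or given the dye alone. Each group had 2 Illumina bead arrays, 6 in all. The labels number the replicates without saying that they came from separate cultures or mice, so each p-value reflects the spread of these arrays alone, which may be technical.

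A Rab protein is active on a membrane when bound to GTP and inactive when bound to GDP. Exchange factors load GTP, GTPase activating proteins end the active state, and effectors bind the active form and carry out the transport step. Newly made Rabs are fitted with lipid tails by a geranylgeranyl transferase, and GDP dissociation inhibitors keep the inactive form soluble. In dendritic cells, Rab pathways serve the uptake and breakdown of antigen, the traffic of MHC molecules and the release of cytokines and granules.

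The mean probe signal was 626 and 643 in ROS cells, 545 and 530 in LPS cells and 765 and 704 in unstimulated cells, on the scanner's linear scale. Of 25697 probes, 11251 and 11438 were detected in ROS cells, 10428 and 10485 in LPS cells and 11267 and 11356 in unstimulated cells. Arrays of the same group correlated at r of 0.988 to 0.994 over the kept probes, and arrays of different groups at no more than 0.939. Of 7 dendritic cell markers, 6 were annotated in the table, and all 6 were detected on every ROS and unstimulated array. Itgax, which encodes CD11c, was detected on only 1 of the 2 LPS arrays, where its log2 intensities were 5.18 and 5.71. Of the 6 markers, Ccr7, Zbtb46 and Dpp4 rose after ROS, by 0.94, 0.77 and 0.73 on the log2 scale, and Cd74 and H2-Ab1 fell, at -0.71 and -1.79. After LPS, Cd74, H2-Ab1, Zbtb46 and Dpp4 fell and 0 rose. Over all tested genes, 22.0% rose and 18.0% fell after ROS, and 24.9% rose and 29.1% fell after LPS. The summed raw signal of the 6, of which Cd74 and H2-Ab1 gave most, was 34500 to 37100 in ROS cells, 39300 to 42700 in LPS cells and 88700 to 103000 in unstimulated cells.

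The first question was how many of the 42 Rab genes differed between groups. A call needed an adjusted p under 0.05 from limma, with Benjamini-Hochberg adjustment over 11622 kept probes. After ROS, 7 Rab genes rose and 8 fell against unstimulated cells, 15 of 42 in all, where 40.1% of the 7896 tested genes changed, 22.0% higher and 18.0% lower. After LPS, 12 rose and 12 fell, 24 of 42, where 54.0% of all genes changed, 24.9% higher and 29.1% lower. Directly between the stimuli, 15 were higher and 8 lower in LPS than in ROS cells, 23 of 42, where 56.0% of all genes changed, 25.0% higher and 31.0% lower. These counts lay near the share over all genes, so the family as a whole was not set apart by how many members changed.

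The sizes were moderate. The median log2 fold change of the 42 genes was -0.12 after ROS, 0.14 after LPS and 0.12 for LPS against ROS, beside 0.05, -0.05 and -0.08 over all tested genes. With each array scaled to its median the Rab medians were -0.20, -0.37 and -0.22, and with no scaling -0.30, -0.61 and -0.36, so the sign for LPS and for LPS against ROS turned with the scaling. Called changes of at least 1 log2 unit were seen in 4 Rab genes after ROS, where 13.8% of all genes had one. After LPS there were 9, where the share was 22.2%, and for LPS against ROS 8, where it was 26.1%. In all, 13 genes had such a change in at least 1 comparison, and their values are given array by array below.

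The members can be sorted by their calls in ROS and in LPS, both set against the same 2 unstimulated arrays. Rab8b, Rab12, Rab15 and Rab21, 4 of 42, rose in both, as did 8.49% of all genes. Rab24, Rab31 and Rab33a fell in both, as did Rab7 by its brightest probe alone, and 9.44% of all genes had this pattern. Rab27a and Rab44 rose after ROS and fell after LPS, a pattern of 5.19% of all genes, and Rab7b alone among the 42 fell after ROS and rose after LPS, a pattern of 3.12%. Rab22a was called higher in ROS with no call in LPS, the pattern of 8.36% of all genes, and Rab3d, Rab18 and Rab19 were called lower in ROS with no call in LPS, that of 5.5%. With no call in ROS, Rab1a, Rab4b, Rab5a, Rab9, Rab28, Rab32 and Rab34, 7 of 42, were called higher in LPS, beside 13.3% of all genes. Likewise Rab6b, Rab11a, Rab14, Rab38, Rab39 and Rab40c, 6 of 42, were called lower, beside 14.4%. The other 14 members, Rab1b, Rab2a, Rab3a, Rab5c, Rab6a, Rab8a, Rab10, Rab11b, Rab13, Rab29, Rab33b, Rab35, Rab39b and Rab43, passed the test against unstimulated cells in neither, beside 32.2% of all genes.

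**Figure D1:**
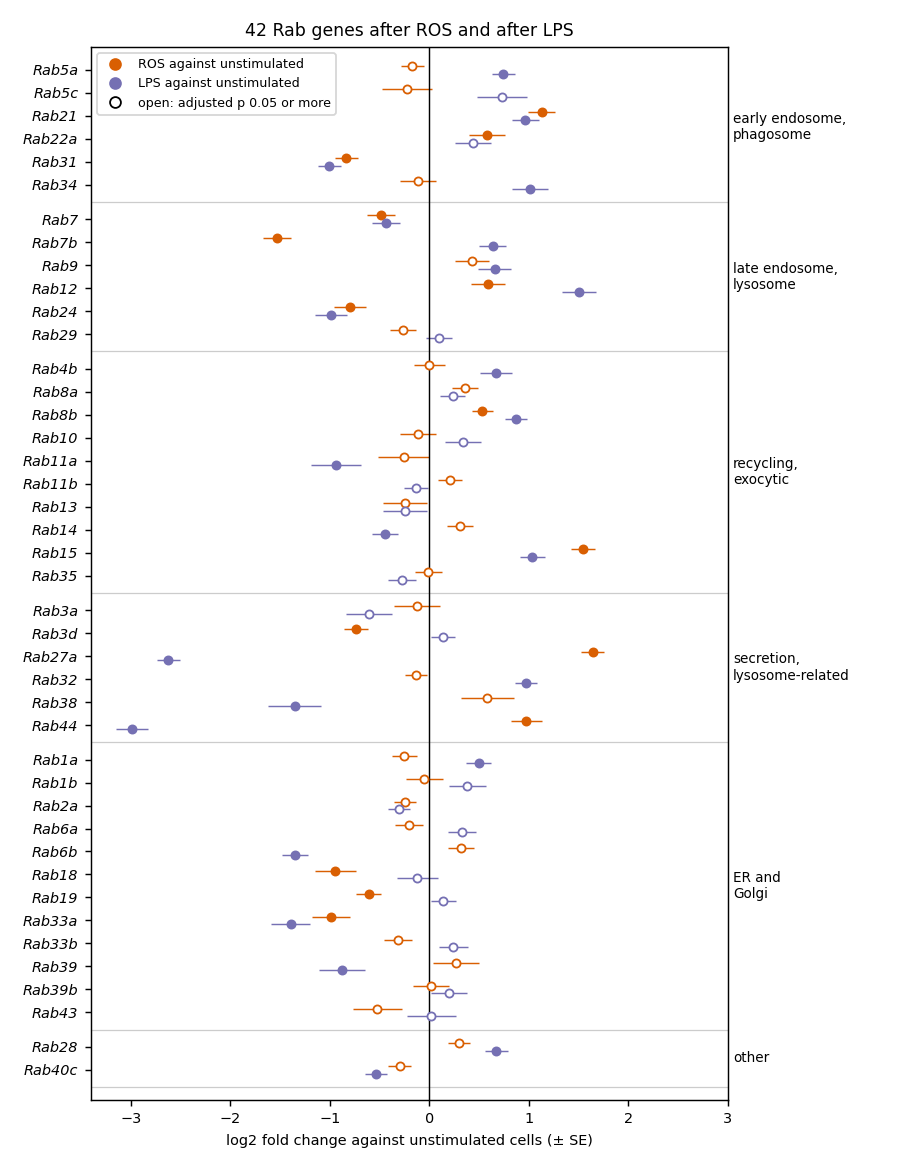
Log2 fold change against unstimulated cells (x axis, with SE bars) for each of the 42 Rab genes (rows, grouped by membrane), after ROS (orange) and after LPS (purple), 2 arrays a group; filled points have an adjusted p under 0.05. Rab27a and Rab44 lie to the right of 0 after ROS and farthest to the left after LPS, at -2.62 and -2.99, while Rab7b lies at -1.53 after ROS and 0.64 after LPS.

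Promoter sequence was available from RefSeq, on the GRCm38.p6 build, for 37 of the 42 members, and not for Rab2a, Rab7b, Rab18, Rab38 and Rab44. The window searched was the 250 bases before the outermost start of each gene, on both strands. The GC box GGGCGG stood in 24 of 37 windows, 64.9%, beside 58.9% of the 6508 promoters of tested genes and 33.0% of all 27025 promoters. The kappaB site, GGGA and TTCC with any 2 bases between them, was in 0 of 37, beside 1.17% of tested genes' promoters, and the ISRE core, GAAA and GAAA with any 2 bases between them, was in 1, Rab19, beside 2.92%. The E-box CACGTG was in 2, Rab21 and Rab5a, beside 8.68%, and its letters contain the hypoxia response core ACGTG, which was in 6, beside 22.1%. The AP-1 site TGANTCA was in 1, Rab34, beside 4.64%, and the gamma-activated site TTCNNNGAA in 3, Rab11a, Rab19 and Rab34, beside 5.9%. The antioxidant response core TGACNNNGC was in 4, beside 11.8%, the MITF-type E-box CATGTG in 3, beside 7.41%, and the GATA site AGATAA in 1, beside 6.02%. Each share among the Rab genes rests on few promoters, and a match or its absence says only which letters lie in the window.

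Windows of 4 genes are shown, 5′ to 3′ on the gene's strand with the GC box in capitals, because these genes stand for 3 of the call patterns above. Rab27a rose after ROS and fell after LPS, and its window is chr9:73044560-73044809 on the plus strand, with the box starting 13 bases before the start. Rab21 rose after both stimuli, and its window is chr10:115315592-115315841 on the minus strand, with the box 44 bases before the start. Rab12 also rose after both, more so after LPS, and its window is chr17:66519671-66519920 on the minus strand, with the box 103 bases before the start. Rab34 rose after LPS, and its window is chr11:78188177-78188426 on the plus strand, with no GC box. In Rab27a and Rab21 the box reads as its reverse complement.
Rab27a: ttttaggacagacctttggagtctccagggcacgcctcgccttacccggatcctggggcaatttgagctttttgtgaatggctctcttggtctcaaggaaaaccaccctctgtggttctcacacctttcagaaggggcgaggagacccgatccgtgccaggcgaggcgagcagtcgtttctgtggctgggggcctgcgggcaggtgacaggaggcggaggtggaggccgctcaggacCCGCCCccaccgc
Rab21: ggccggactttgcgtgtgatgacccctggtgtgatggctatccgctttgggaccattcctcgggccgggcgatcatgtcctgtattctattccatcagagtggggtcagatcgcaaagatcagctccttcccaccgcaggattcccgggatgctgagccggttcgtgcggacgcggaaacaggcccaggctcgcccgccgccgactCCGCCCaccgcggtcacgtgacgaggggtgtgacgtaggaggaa
Rab12: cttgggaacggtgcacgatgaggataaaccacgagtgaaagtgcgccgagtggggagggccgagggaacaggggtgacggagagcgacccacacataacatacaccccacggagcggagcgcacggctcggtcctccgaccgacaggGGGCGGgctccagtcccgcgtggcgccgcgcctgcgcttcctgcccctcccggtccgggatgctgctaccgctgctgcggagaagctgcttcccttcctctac
Rab34: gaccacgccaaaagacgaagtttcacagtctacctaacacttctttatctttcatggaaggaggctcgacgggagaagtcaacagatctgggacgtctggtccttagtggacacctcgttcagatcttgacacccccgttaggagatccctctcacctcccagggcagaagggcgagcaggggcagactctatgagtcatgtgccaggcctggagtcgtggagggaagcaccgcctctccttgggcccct

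Rabs of regulated secretion and lysosome-related organelles held the widest differences. Of the 6 measured, Rab3a, Rab3d, Rab27a, Rab32, Rab38 and Rab44, 2 rose and 1 fell after ROS, and 1 rose and 3 fell after LPS, 50.0% and 66.7% changed beside 40.1% and 54.0% of all genes. Rab27a, which docks secretory lysosomes and granules at the plasma membrane, had log2 intensities of 12.62 and 12.59 in ROS cells, 8.28 and 8.41 in LPS cells and 10.93 and 11.00 in unstimulated cells. The 3 groups did not overlap, with ROS arrays high and LPS arrays low. It rose 3.12-fold after ROS (log2 fold change 1.64 ± 0.11 SE, adjusted p = 0.000236) and was 6.16-fold lower after LPS (-2.62 ± 0.11, adjusted p = 1.87e-05). LPS cells stood 19.2-fold below ROS cells (-4.26 ± 0.11, adjusted p = 5.97e-06), the widest difference of any Rab gene in the 3 comparisons. In the authors' own log2 table, Rab27a averaged 12.65 in ROS cells, 8.88 in LPS cells and 11.08 in unstimulated cells, in the same order.

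Rab44, a large Rab with calcium-binding motifs that takes part in granule release in mouse mast cells, had log2 intensities of 9.83 and 9.54 in ROS cells, 5.64 and 5.80 in LPS cells and 8.58 and 8.84 in unstimulated cells. Its order was that of Rab27a, again with no overlap between groups. It rose 1.97-fold after ROS (0.98 ± 0.16, adjusted p = 0.00509) and was 7.92-fold lower after LPS (-2.99 ± 0.16, adjusted p = 3.84e-05), which left LPS cells 15.6-fold below ROS cells (-3.96 ± 0.16, adjusted p = 1.45e-05). Its LPS signals of 168.0 and 168.1 lay just above the detection limits of 164.3 and 160.5. Against unstimulated cells its LPS value ranged from -3.69 to -1.5 under the 18 alternatives run. In the authors' own log2 table, Rab44 averaged 9.93 in ROS cells, 7.56 in LPS cells and 9.14 in unstimulated cells. The order was the same and the gaps were smaller. Rab38, which serves melanosomes and other lysosome-related organelles, had log2 intensities of 6.43 and 7.24 in ROS cells, 5.01 and 4.79 in LPS cells and 6.25 and 6.25 in unstimulated cells. It was detected on neither LPS array, so its LPS level is a bound. Against the lowest signal called detected on those arrays, it was at least 1.74-fold lower in LPS than in unstimulated cells (adjusted p = 0.00647) and at least 2.6-fold lower than in ROS cells (adjusted p = 0.00141), while its ROS value of 0.58 ± 0.26 did not pass the test (adjusted p = 0.131). In the authors' own log2 table, Rab38 averaged 7.98 in ROS cells, 7.35 in LPS cells and 7.72 in unstimulated cells, with smaller gaps. Here and below, an adjusted p beside such a bound belongs to the fitted log2 difference and does not test the bound. Each bound holds only for the background correction and offset used here.

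Rab32, the closest relative of Rab38 and also a Rab of mitochondria and pathogen-containing vacuoles, went the other way after LPS. Its log2 intensities were 12.00 and 11.94 in ROS cells, 13.11 and 13.05 in LPS cells and 12.11 and 12.10 in unstimulated cells. Only the LPS arrays stood apart by more than 0.5 log2 units. It rose after LPS by 0.97 ± 0.11 (adjusted p = 0.000662) and was higher in LPS than in ROS cells by 1.11 ± 0.11 (adjusted p = 0.000338), and its ROS value of -0.14 ± 0.11 did not pass (adjusted p = 0.355). Rab3d, a Rab of secretory granules, fell after ROS, at -0.74 ± 0.12 (adjusted p = 0.00538), and had 0.13 ± 0.12 after LPS (adjusted p = 0.393). Rab3a, the synaptic vesicle Rab, was detected on 1 of 2 LPS arrays and was called in no comparison.

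Some markers of other cells and of dendritic cells moved as Rab27a and Rab44 did, and others did not. Among the dendritic cell markers, Dpp4 and Zbtb46 rose after ROS, by 0.73 and 0.77, and fell after LPS, at -2.57 and -0.76. Cd74 and H2-Ab1 fell after both stimuli, and Ccr7 and Itgax were not called after LPS. Of 7 mast cell and basophil markers, 3 were annotated in the table. Cpa3, mast cell carboxypeptidase, changed by 2.51 ± 0.27 after ROS (adjusted p = 0.00104) and -2.70 ± 0.27 after LPS (adjusted p = 0.000407). Fcer1a, the alpha chain of the IgE receptor, changed by 2.22 ± 0.15 after ROS (adjusted p = 0.000201) and was detected on neither LPS array. Gata2, a transcription factor of mast cells and progenitors, had 1.19 ± 0.40 after ROS (adjusted p = 0.056) and changed by -2.30 ± 0.40 after LPS (adjusted p = 0.00399). So 2 of the 3 rose after ROS and 3 of 3 fell after LPS, beside 22.0% of all genes higher after ROS and 29.1% lower after LPS. The summed raw signal of the 3 was 4440 to 4840 in ROS cells, 498 to 544 in LPS cells and 1550 to 1820 in unstimulated cells.

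Of 9 markers of neutrophils and granulocyte precursors, 8 were in the table, of which 3 rose and 3 fell after ROS and 8 of 8 fell after LPS. Over all genes, 22.0% rose and 18.0% fell after ROS, and 24.9% rose and 29.1% fell after LPS. Mpo and Prtn3, which encode primary granule proteins, rose after ROS by 1.17 ± 0.18 (adjusted p = 0.00376) and 1.45 ± 0.17 (adjusted p = 0.0016), and Mpo, Prtn3 and Ngp were detected on neither LPS array. Ltf, Ngp and Camp, which encode secondary granule proteins, fell after ROS, with log2 fold changes of -1.78, -1.84 and -2.28. The summed raw signal of the 8 was 36500 to 40100 in ROS cells, 2660 to 2750 in LPS cells and 58200 to 61000 in unstimulated cells. Of 5 macrophage markers in the table, 4 fell and 0 rose after ROS, and 4 fell and 1 rose after LPS, with a summed raw signal of 2010 to 2160 in ROS cells, 3590 to 3810 in LPS cells and 18800 to 21400 in unstimulated cells. The 3 natural killer cell markers summed to 719 to 740 in ROS cells, 482 to 517 in LPS cells and 813 to 835 in unstimulated cells. In the authors' table, 0 of 7 T and B cell markers had an annotated probe. A marker absent from that table may have been undetected rather than missing from the arrays. In bulk samples, fewer cells of a type and less RNA per cell cannot be told apart, and the part of these markers in the Rab results was not tested.

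**Figure D2:**
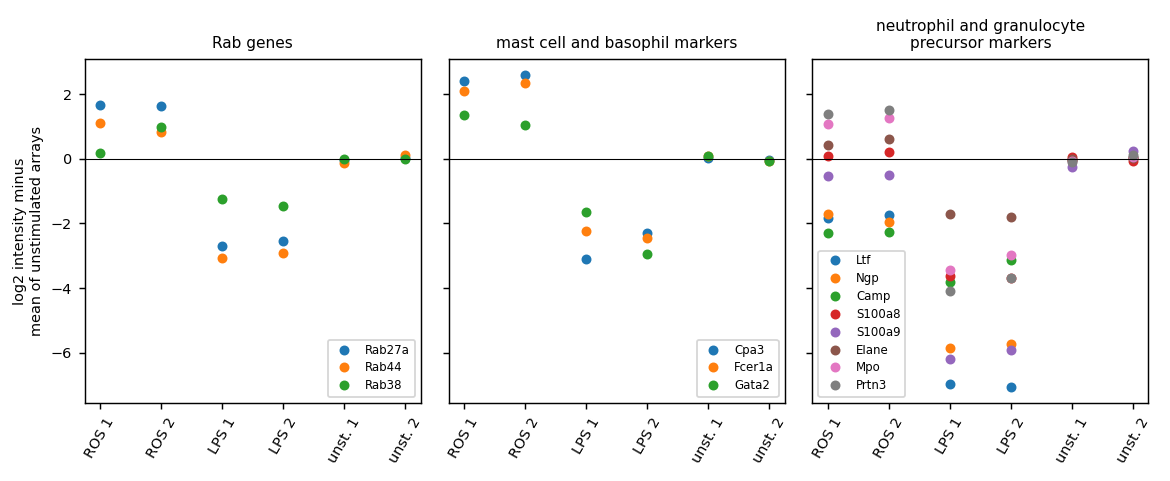
Log2 intensity minus the mean of the unstimulated arrays (y axis) on each of the 6 arrays (x axis) for Rab27a, Rab44 and Rab38, for 3 mast cell and basophil markers and for 8 markers of neutrophils and granulocyte precursors; each point is 1 gene on 1 array. Rab27a, Rab44, Cpa3, Fcer1a, Mpo and Prtn3 lie above 0 on both ROS arrays and below 0 on both LPS arrays, while Ltf, Ngp and Camp lie below 0 on all 4 stimulated arrays.

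The next group was the Rabs of early endosomes and phagosomes. Of the 6 measured, Rab5a, Rab5c, Rab21, Rab22a, Rab31 and Rab34, 2 rose and 1 fell after ROS, and 3 rose and 1 fell after LPS, 50.0% and 66.7% changed beside 40.1% and 54.0% of all genes. Rab21, which controls integrin traffic at early endosomes, had log2 intensities of 10.58 and 10.58 in ROS cells, 10.32 and 10.51 in LPS cells and 9.34 and 9.56 in unstimulated cells. All 4 stimulated arrays lay above both unstimulated ones. It rose after ROS by 1.13 ± 0.13 (adjusted p = 0.00155) and after LPS by 0.97 ± 0.13 (adjusted p = 0.00166), and the difference between the stimuli of -0.16 ± 0.13 did not pass (adjusted p = 0.341).

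Rab31, which moves cargo between the Golgi and endosomes, had log2 intensities of 11.20 and 11.15 in ROS cells, 10.97 and 11.04 in LPS cells and 11.94 and 12.09 in unstimulated cells. Both stimulated groups were low. Its log2 fold change was -0.83 ± 0.12 after ROS (adjusted p = 0.00279) and -1.01 ± 0.12 after LPS (adjusted p = 0.000757). Rab34, a Rab of phagosome maturation and lysosome positioning, had log2 intensities of 5.35 and 5.30 in ROS cells, 6.68 and 6.21 in LPS cells and 5.34 and 5.54 in unstimulated cells. Only the LPS arrays were high on this scale. Its raw signals of 183.6 and 190.2 in unstimulated cells lay near the detection limits of 180.6 and 178.6. On the raw scale the first LPS array lay above both unstimulated arrays and the second, at 178.7, below both. In the authors' own log2 table, Rab34 averaged 7.40 in ROS cells, 7.81 in LPS cells and 7.44 in unstimulated cells, with smaller gaps. It rose after LPS by 1.01 ± 0.18 (adjusted p = 0.00452) and was higher in LPS than in ROS cells by 1.12 ± 0.18 (adjusted p = 0.00269), while ROS gave -0.12 ± 0.18 (adjusted p = 0.638). Rab5a, the organising Rab of early endosomes, rose after LPS by 0.74 ± 0.11 (adjusted p = 0.00231), though its dimmer probe gave 0.07 (adjusted p = 0.816). Its paralogue Rab5c gave 0.73 ± 0.25 (adjusted p = 0.05045), with 11.19 and 10.44 on the LPS arrays and 10.22 and 9.96 on the unstimulated arrays. Rab22a, which acts in endosomal sorting, was called higher after ROS at 0.57 (adjusted p = 0.04727), where its dimmer probe gave 0.27 (adjusted p = 0.279).

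Among Rabs of late endosomes, lysosomes and retrograde transport, 6 were measured, Rab7, Rab7b, Rab9, Rab12, Rab24 and Rab29. After ROS 1 rose and 3 fell, and after LPS 3 rose and 2 fell, 66.7% and 83.3% changed beside 40.1% and 54.0% of all genes. Rab7b, which returns receptors from late endosomes to the Golgi and limits Toll-like receptor signalling in macrophages, had log2 intensities of 8.85 and 8.89 in ROS cells, 11.02 and 11.06 in LPS cells and 10.56 and 10.25 in unstimulated cells. The groups did not overlap, with ROS low and LPS high. It fell after ROS, with a log2 fold change of -1.53 (SE 0.14, adjusted p = 0.000584), and LPS cells stood above ROS cells by 2.17 ± 0.14 (adjusted p = 6.7e-05), the widest difference in that direction among the Rab genes. Its rise after LPS was 0.64 ± 0.14 (adjusted p = 0.00998), and it was 0.48 (adjusted p = 0.05213) without the second unstimulated array, 0.24 (adjusted p = 0.2602) with each array scaled to its median and at -0.000664 with no scaling.

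Rab12, which sends the transferrin receptor from recycling endosomes to lysosomes, had log2 intensities of 9.09 and 9.27 in ROS cells, 10.09 and 10.09 in LPS cells and 8.37 and 8.81 in unstimulated cells. LPS arrays were highest and unstimulated arrays lowest, with no overlap. It rose after LPS by 1.50 ± 0.17 (adjusted p = 0.000739), the largest rise of a Rab gene after LPS. It was higher in LPS than in ROS cells by 0.92 ± 0.17 (adjusted p = 0.00515), but by 0.38 with no scaling (adjusted p = 0.06122). Its ROS value of 0.59 ± 0.17 (adjusted p = 0.0375) lost the call without either ROS array or without the first unstimulated array, where it was 0.68, 0.50 and 0.37 with adjusted p = 0.08195, 0.1587 and 0.1583. Rab24, linked to autophagy, fell after both stimuli, at -0.79 after ROS and -0.99 after LPS, and its 3 probes all passed the test in the same direction in both. Rab7, the main late endosome Rab, was called lower after LPS at -0.44 (adjusted p = 0.0408) by its brightest probe, while its other probes gave 0.64 (adjusted p = 0.00521) and 0.33 (adjusted p = 0.11), so the direction for Rab7 after LPS depended on the probe. Rab9, which returns mannose 6-phosphate receptors to the Golgi, was called higher after LPS at 0.66 but was at -0.12 with no scaling. After ROS, Rab9 and Rab29 were not called, at 0.43 and -0.27.

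Of 10 measured Rabs of recycling endosomes and exocytosis, Rab4b, Rab8a, Rab8b, Rab10, Rab11a, Rab11b, Rab13, Rab14, Rab15 and Rab35, 2 rose and 0 fell after ROS, and 3 rose and 2 fell after LPS, 20.0% and 50.0% changed beside 40.1% and 54.0% of all genes. Rab15, which acts at early and recycling endosomes, had log2 intensities of 7.68 and 7.63 in ROS cells, 7.11 and 7.18 in LPS cells and 6.21 and 6.01 in unstimulated cells. All 3 groups were apart, with ROS highest. It rose after ROS by 1.54 ± 0.12 (adjusted p = 0.000375) and after LPS by 1.03 ± 0.12 (adjusted p = 0.000894). In the authors' own log2 table, Rab15 averaged 8.41 in ROS cells, 8.13 in LPS cells and 7.66 in unstimulated cells, with smaller gaps. The difference of -0.51 ± 0.12 between LPS and ROS cells (adjusted p = 0.0141) was -0.49 (adjusted p = 0.06243) without the first ROS array and -0.47 (adjusted p = 0.05553) without the first LPS array.

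Rab8b, a Rab of transport from the Golgi to the plasma membrane, was called higher by 0.53 after ROS (adjusted p = 0.0104) and 0.87 after LPS (adjusted p = 0.001), where its dimmer probe gave 0.26 (adjusted p = 0.171) and 0.16 (adjusted p = 0.347). Its paralogue Rab8a passed in neither by its brightest probe, at 0.36 and 0.23, and its dimmer probe gave 0.82 after LPS (adjusted p = 0.00425). Rab11a, the main recycling endosome Rab, was detected on neither LPS array. It was at least 1.8-fold lower there than in unstimulated cells (adjusted p = 0.022). In the authors' own log2 table it averaged 7.46 in LPS cells and 7.74 in unstimulated cells, a smaller gap. Rab4b, a Rab of fast recycling, was called higher after LPS at 0.67 but gave -0.00236 once arrays were scaled to their medians and -0.24 unscaled. Rab14, which links Golgi and endosomes, was called lower at -0.45. Rab10, Rab11b, Rab13 and Rab35 had values from -0.28 to 0.34 against unstimulated cells and no call there.

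Of 12 measured Rabs of the endoplasmic reticulum and Golgi, 0 rose and 3 fell after ROS, and 1 rose and 3 fell after LPS, 25.0% and 33.3% changed beside 40.1% and 54.0% of all genes. Rab6b, a Golgi Rab best known from neurons, had log2 intensities of 6.56 and 6.46 in ROS cells, 4.80 and 4.88 in LPS cells and 6.08 and 6.31 in unstimulated cells. It was detected on neither LPS array. There it was at least 1.67-fold lower than in unstimulated cells (adjusted p = 0.000354). Against ROS cells it was at least 2.08-fold lower (adjusted p = 0.000135). In the authors' own log2 table, Rab6b averaged 7.82 in ROS cells, 7.34 in LPS cells and 7.70 in unstimulated cells, with smaller gaps. Its paralogue Rab6a, the ubiquitous form, gave -0.20 ± 0.14 after ROS (adjusted p = 0.293) and 0.33 ± 0.14 after LPS (adjusted p = 0.0962) by its brightest probe. Its other probes passed the test after ROS, at -0.48 (adjusted p = 0.0434) and -0.83 (adjusted p = 0.0118).

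Rab33a, a Golgi Rab of vesicle secretion in neurons, had log2 intensities of 5.82 and 5.61 in ROS cells, 5.06 and 5.56 in LPS cells and 6.62 and 6.79 in unstimulated cells. All 4 stimulated arrays lay below both unstimulated arrays, and 1 of the 2 LPS arrays detected the probe. Against the lowest signal called detected, it was at least 2.29-fold lower in LPS than in unstimulated cells (adjusted p = 0.00172). In the authors' own log2 table, Rab33a averaged 7.53 in ROS cells, 7.46 in LPS cells and 7.91 in unstimulated cells, with smaller gaps. Its value after ROS of -0.99 (SE 0.19, adjusted p = 0.00969) was -0.91 (adjusted p = 0.06522) without the second unstimulated array and -0.88 (adjusted p = 0.06089) without the second ROS array. Its paralogue Rab33b, which acts in autophagosome formation, had -0.31 and 0.24 with no call against unstimulated cells. Rab33b was called higher in LPS than in ROS cells at 0.56 (adjusted p = 0.0184).

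Rab39, a Rab of the Golgi and of phagosome acidification, had log2 intensities of 6.15 and 6.58 in ROS cells, 5.38 and 5.06 in LPS cells and 5.85 and 6.35 in unstimulated cells. It was detected on neither LPS array, and was at least 1.56-fold lower there than in unstimulated cells (adjusted p = 0.021) and at least 1.88-fold lower than in ROS cells (adjusted p = 0.0074). The LPS value against unstimulated cells was -0.63 (adjusted p = 0.1126) without the second unstimulated array, -0.72 (adjusted p = 0.07799) without the second LPS array and -0.23 (adjusted p = 0.06822) in the authors' log2 values. Rab18 and Rab19 were called lower after ROS at -0.94 and -0.61, and Rab1a, which tethers vesicles between endoplasmic reticulum and Golgi, was called higher after LPS at 0.49 but gave -0.13 once arrays were scaled to their medians and -0.36 unscaled. The remaining members of this group, Rab1b, Rab2a, Rab39b and Rab43, were called in no comparison. The last 2 members, Rab28 of the cilium and Rab40c of a ubiquitin ligase, were called higher at 0.67 and lower at -0.54 after LPS, with no call after ROS. The dimmer probe of Rab28 gave 0.31 after LPS (adjusted p = 0.135).

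**Figure D3:**
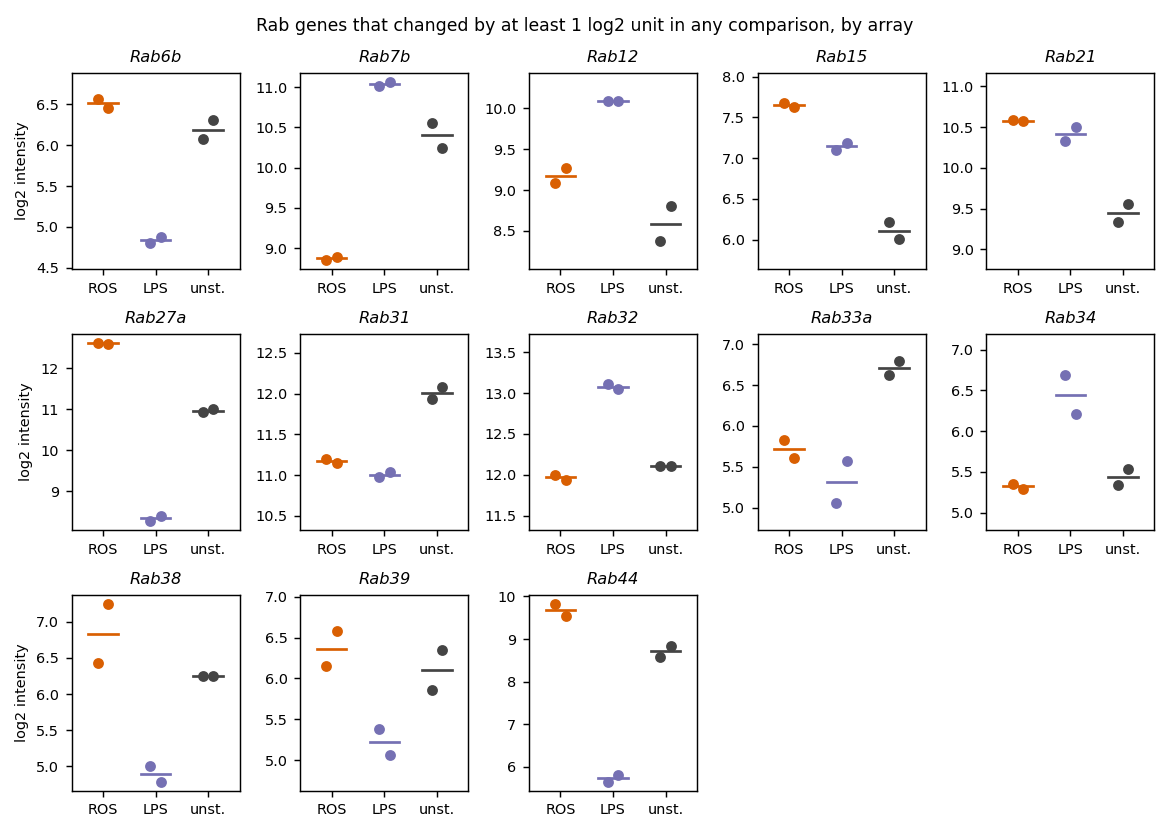
Log2 intensity (y axis, its range set per gene) on each array for the 13 Rab genes with a called change of at least 1 log2 unit in any comparison; points are arrays, 2 a group, and lines are group means for ROS, LPS and unstimulated cells. The ROS mean is highest for Rab6b, Rab15, Rab21, Rab27a, Rab38, Rab39 and Rab44, the LPS mean for Rab7b, Rab12, Rab32 and Rab34, and the unstimulated mean for Rab31 and Rab33a.

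The proteins that handle Rabs were described from lists by role. Of 6 measured genes of the membrane cycle, 1 rose and 0 fell after ROS, and 3 rose and 0 fell after LPS, 16.7% and 50.0% changed beside 40.1% and 54.0% of all genes. Rabif, a chaperone of Rabs without nucleotide, had log2 intensities of 7.95 and 8.21 in ROS cells, 9.21 and 9.15 in LPS cells and 7.71 and 8.05 in unstimulated cells, and rose after LPS by 1.30 ± 0.16 (adjusted p = 0.00107). Rabggta, the alpha subunit of the Rab geranylgeranyl transferase, rose after LPS by 0.82 ± 0.12 (adjusted p = 0.00205), while the beta subunit gene Rabggtb had -0.01 ± 0.12 after LPS (adjusted p = 0.971) and 0.40 ± 0.12 after ROS (adjusted p = 0.0466). Rabac1, a membrane receptor for prenylated Rabs, rose after LPS by 0.53 ± 0.12 (adjusted p = 0.0109). With each array scaled to its median, Rabggta gave 0.17 (adjusted p = 0.3064) and Rabac1 0.23 (adjusted p = 0.2001) after LPS, and with no scaling they were at -0.07 and -0.01. The Rabac1 call was also lost without either unstimulated array or the first LPS array, and the Rabggtb call after ROS without any one of the 6 arrays.

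Of 26 measured exchange factor genes, 3 rose and 6 fell after ROS, and 5 rose and 6 fell after LPS, 34.6% and 42.3% changed beside 40.1% and 54.0% of all genes. Rin3, an exchange factor for the Rab5 family, had log2 intensities of 8.97 and 9.06 in ROS cells, 7.10 and 7.41 in LPS cells and 10.02 and 10.14 in unstimulated cells. Its log2 fold change was -1.06 ± 0.15 after ROS (adjusted p = 0.00263) and -2.82 ± 0.15 after LPS (adjusted p = 3.32e-05). The related gene Rin2 fell after ROS with a log2 fold change of -1.45 (SE 0.11, adjusted p = 0.000297) and had 0.14 ± 0.11 after LPS (adjusted p = 0.311), so that LPS cells stood above ROS cells by 1.59 ± 0.11 (adjusted p = 8.3e-05). Trappc6a, a subunit of the TRAPP tethering complex, had log2 intensities of 9.06 and 9.19 in ROS cells, 9.08 and 9.16 in LPS cells and 10.65 and 10.63 in unstimulated cells, with a log2 fold change of -1.52 after each stimulus (adjusted p = 0.000303 and 0.000141). Rab3il1, an exchange factor for Rab8 proteins, fell after ROS with a log2 fold change of -1.28 (SE 0.18, adjusted p = 0.00282) and was detected on neither LPS array, where it was at least 2.32-fold lower than in unstimulated cells (adjusted p = 0.000354).

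Of 24 measured GTPase activating protein genes, 3 rose and 3 fell after ROS, and 4 rose and 9 fell after LPS, 25.0% and 54.2% changed beside 40.1% and 54.0% of all genes. Tbc1d10c, also known as carabin and an inhibitor of calcineurin, had log2 intensities of 10.62 and 10.64 in ROS cells, 7.15 and 6.97 in LPS cells and 8.96 and 8.93 in unstimulated cells. It rose after ROS by 1.69 ± 0.12 (adjusted p = 0.000244) and fell after LPS with -1.88 (SE 0.12, adjusted p = 6.82e-05), in the same order of groups as Rab27a and Rab44. Tbc1d9 had log2 intensities of 7.17 and 7.40 in ROS cells, 9.96 and 9.96 in LPS cells and 7.65 and 7.60 in unstimulated cells, a rise after LPS of 2.34 ± 0.13 (adjusted p = 3.86e-05). Usp6nl, which inactivates Rab5, rose after LPS by 1.90 ± 0.14 (adjusted p = 0.000118) and had -0.41 ± 0.14 after ROS (adjusted p = 0.05444). Tbc1d8 was detected on neither LPS array and was at least 2.54-fold lower there than in unstimulated cells (adjusted p = 0.00213).

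Of 34 measured effector genes, 3 rose and 8 fell after ROS, and 7 rose and 4 fell after LPS, 32.4% and 32.4% changed beside 40.1% and 54.0% of all genes. Lrrk2, the kinase that phosphorylates Rab8 and Rab10, had log2 intensities of 7.23 and 7.51 in ROS cells, 9.77 and 9.71 in LPS cells and 7.81 and 7.84 in unstimulated cells. It fell after ROS with a log2 fold change of -0.45 (SE 0.13, adjusted p = 0.0388) and rose after LPS by 1.92 ± 0.13 (adjusted p = 0.000108). Rilpl1, which binds those Rabs once they are phosphorylated, had log2 intensities of 5.32 and 5.39 in ROS cells, 7.86 and 7.80 in LPS cells and 6.35 and 6.25 in unstimulated cells, and it too fell after ROS, with -0.95 (SE 0.11, adjusted p = 0.00157), and rose after LPS, by 1.53 ± 0.11 (adjusted p = 0.00013). Myrip, which ties Rab27a to myosin motors, had log2 intensities of 7.43 and 7.57 in ROS cells, 5.88 and 5.81 in LPS cells and 6.09 and 6.13 in unstimulated cells. It rose after ROS by 1.39 ± 0.11 (adjusted p = 0.00042) and had -0.26 ± 0.11 after LPS (adjusted p = 0.1). The ROS call of Lrrk2 was lost without either unstimulated array or the first ROS array, at adjusted p = 0.1279, 0.1447 and 0.1476. Mical1, an actin oxidase that binds Rabs, fell after both, with log2 fold changes of -0.50 after ROS (SE 0.11, adjusted p = 0.0154) and -1.51 after LPS (SE 0.11, adjusted p = 0.000131). Its ROS call was lost without either unstimulated array or the second ROS array, with adjusted p = 0.07835, 0.0681 and 0.06943.

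The split between higher and lower Rab genes depended on how arrays were put on 1 scale. Quantile normalisation gave 7 higher and 8 lower after ROS, 12 and 12 after LPS, and 15 and 8 for LPS against ROS. Scaling each array to its median gave 5 and 9, 8 and 19, and 6 and 16. No scaling gave 4 and 13, 2 and 28, and 5 and 19. The medians were taken over all 25697 probes, of which 40.6 to 44.5% were detected on an array. Each median thus lay below the detection limit, so median scaling lined up the arrays at undetected probes. The authors' own quantile-normalised log2 values gave 10 and 10, 15 and 12, and 16 and 8. Over all probes tested, 39.5%, 52.8% and 54.9% were called in the same comparisons with quantile normalisation. The shares were 39.8%, 62.7% and 61.8% with median scaling and 40.0%, 72.7% and 65.7% with no scaling. In the authors' values they were 43.9%, 53.8% and 55.4%. The median log2 change over all kept probes was -0.04 for LPS against unstimulated cells with quantile normalisation, -0.49 with median scaling and -0.73 with no scaling. For LPS against ROS the same medians were -0.05, -0.41 and -0.55, and for ROS against unstimulated cells 0.04, -0.05 and -0.15. For LPS against unstimulated cells, the calls of Rab27a, Rab44, Rab6b, Rab38, Rab31, Rab33a, Rab12, Rab32 and Rab24 held under all 18 alternatives run, scalings included, and those of Rab15, Rab21 and Rab34 held under all but no scaling, where they were 0.17, 0.23 and 0.32. After ROS, the calls of Rab27a, Rab44, Rab15, Rab21, Rab7b, Rab31 and Rab3d held under all 18. The other calls were lost under at least 1 alternative. Leaving out either unstimulated array ended the ROS calls of Rab7, Rab8b, Rab18, Rab19, Rab22a and Rab24 and the LPS calls of Rab1a, Rab4b, Rab7, Rab11a and Rab14, and leaving out the second ended those of Rab9 and Rab40c after LPS. Without the first ROS array the ROS calls of Rab7, Rab19 and Rab22a were lost, and without the second those of Rab18 and Rab22a. Without the first LPS array the LPS calls of Rab1a, Rab7, Rab11a and Rab14 were lost, and without the second those of Rab7, Rab9 and Rab14. Between LPS and ROS cells, the calls of Rab8b and Rab11b were lost without any one of the 6 arrays, that of Rab28 without any one ROS or LPS array, that of Rab5c without either ROS array and that of Rab4b without the first. Those of Rab6a and Rab33b were lost without the second ROS or the second LPS array, and that of Rab18 without the second ROS array. For LPS against ROS, both median scaling and no scaling ended the calls of Rab1a, Rab4b, Rab5c, Rab6a, Rab8b, Rab18, Rab19, Rab28 and Rab33b. Median scaling also ended that of Rab11b, and no scaling that of Rab12.

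**Figure D4:**
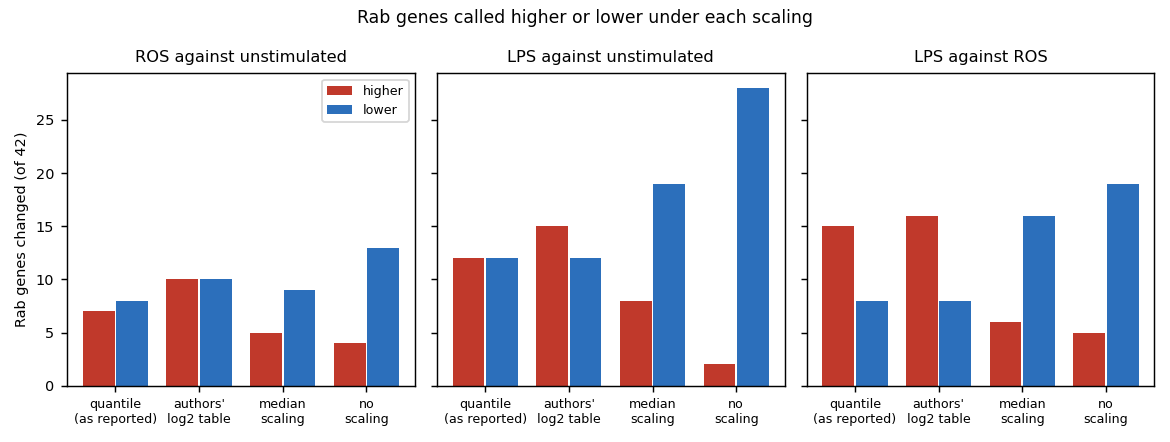
Number of the 42 Rab genes called higher (red) and lower (blue) at an adjusted p under 0.05 (y axis) under 4 ways of putting the arrays on 1 scale (x axis), for the 3 comparisons. In LPS against unstimulated cells the split is 12 and 12 with quantile normalisation and 2 and 28 with no scaling. The share of all kept probes called there is 52.8% with quantile normalisation and 72.7% with no scaling.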

How the data were processed

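Dendritic cell RNA was measured on Illumina bead arrays. The authors deposited raw probe intensity for 6 arrays (GenomeStudio 2009.2, per the submitters' processing notes), detection p-values for 5 of them, and quantile-normalised log2 values of 11220 probes. Columns named iDC and HP were read as unstimulated and ROS by their names. Intensities were corrected by normexp on detection p-values with an offset of 16, logged to base 2 and then quantile normalised between arrays. For the second LPS array, the detection limit was taken as lying between 160.52 and 160.57, from the probes that the authors' list holds. The 11622 of 25697 probes whose detection p was under 0.05 for both arrays of any group were kept. All 3 groups entered 1 fit in limma 3.58.1 (R 4.3.3) with 3 residual degrees of freedom, adjusted by Benjamini-Hochberg. The fit was tested on simulated data. GEO's platform annotation gave 10558 probes 1 gene and left 662 unnamed here.

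Array values are given for Rab genes with a called change of at least 1 log2 unit in any comparison, and for at most 4 genes of each regulator list by size of change. The members and lists were chosen with earlier results of these data known. The number of arrays limits the precision.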

Additional observations from a re-analysis of the deposited data

How the results depend on the processing

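With 2 arrays a group, precision was low. Leaving out 1 array at a time gave 8 to 15 changed Rab genes after ROS, against 15 with all arrays. The count was 8 without the first unstimulated array and 8 without the second. After LPS the range was 15 to 24, against 24, with 15 without the second unstimulated array, and for LPS against ROS it was 16 to 21, against 23. In each comparison, leaving out 1 array of either group compared also lowered the share of all kept probes called. The drop in calls was therefore not seen in the Rab genes alone. Under the other alternatives the counts stayed within 1.5 times.

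The direction turned for a few calls of LPS against unstimulated cells. With median scaling, Rab1a was at -0.13 and Rab4b at -0.00236. With no scaling, Rab1a was at -0.36, Rab4b at -0.24, Rab7b at -0.000664 and Rab9 at -0.12. No scaling also put Rabggta at -0.07 and Rabac1 at -0.01. Averaging a gene's probes put Rab7 at 0.18. For LPS against ROS with no scaling, Rab4b was at -0.03, Rab6a at -0.1 and Rab33b at -0.1. The cause was not tested. Of 540 counts over the role lists under the alternatives, 84 moved by over 1.5 times. Of 61 calls of the 24 other named genes, 8 were lost under some alternative.

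Deviations of same-numbered arrays from their group means correlated at -0.106, 0.0209 and -0.0241 between groups. With 2 arrays a group, these values cannot show whether same-numbered arrays shared a culture or mouse. Blocking on the replicate number, 13 Rab genes changed after ROS, 24 after LPS and 21 for LPS against ROS.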
